A study of Rattus norvegicus with 15 samples.

Results

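Circulating blood 1 h after venous clot modelling was compared with sham blood, by RNA sequencing, over 9951 of the 17599 features of the expression table. These are the features with a normalised read count of at least 10 in 3 or more of the 6 libraries compared, 3 sham and 3 at 1 h. Of the 9951, 7950 carry annotated gene IDs and 2001 are models assembled by the submitters. No file gives a gene name, and 0 of the IDs matched the reference table of rat genes, so features are described by ID, abundance, direction and time course.

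Deep venous thrombosis is the formation of a clot of fibrin, platelets and trapped blood cells in a deep vein. Whole blood RNA comes from reticulocytes, which still carry the messages of red cell formation, and from leukocytes and platelets. Its profile can move because the cells transcribe differently or because cells enter or leave the circulation. In such bulk samples fewer cells of a type and less RNA per cell cannot be told apart.

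The donors were male Sprague-Dawley rats, an outbred stock, aged 6 to 8 weeks and weighing 250 to 300 g. The sham group, placed at 0 h in the labels, and the 1 h group after modelling each hold 3 whole-blood libraries under the same run label, A&B. The labels describe neither the induction of the clot nor the sham procedure. The series also holds 3 libraries each at 6 h and 12 h, under run label C, and at 72 h, under A&B. Replicates carry numbers that are tied to no animal, so p-values measure only the spread between samples, part of which may be technical. Blood cell markers were not checked, since no feature has a name.

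The whole reads recovered from the normalised values came to 31.0 to 37.5 M (mega-reads) in sham and 31.2 to 35.8 M at 1 h. Reads outside the 5 most abundant features numbered 4.96 to 5.65 M in sham and 5.10 to 5.35 M at 1 h. Each deposited value is the read number divided by a library factor. This factor was 1.00, 1.28 and 1.55 in sham replicates 1 to 3 and 0.755, 1.03 and 1.065 in the 1 h replicates. Group means were 1.28 ± 0.272 in sham and 0.950 ± 0.170 at 1 h (SD, n = 3 each), with an exact two-sided permutation p of 0.3 (0.9 after Benjamini-Hochberg adjustment over 5 library measures). The groups overlapped in it, but its mean was lower at 1 h. Abundant features are set beside it below. Pairs of libraries of the same group correlated across features with a median r of 0.922 (0.88 to 0.93). Pairs from different groups had a median of 0.896 (0.854 to 0.903), so the ranges overlapped. Features are not independent replicates.

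At 1 h, 15 features were lower than in sham and 0 were higher. This is 0.151% of the 9951 features, at a Benjamini-Hochberg adjusted p under 0.05 in limma with all 15 libraries in the fit. Among features that were higher, the lowest adjusted p in limma was 0.0504 in an assembled model. At an unadjusted p under 0.05 there were 737 features (7.41%), 240 higher (2.41%) and 497 lower (4.99%). The log2 differences of the 15, on the log2(value + 1) scale, had a median of -2.43 and ran from -4.72 to -1.57. In sham their mean normalised read counts lay between 56.2 and 1275, with a median of 125 (the median feature has 54.4 in sham). The 15 were chosen in part for high sham values, so nothing is read from that difference. By mean over all 15 libraries they lay between the 44.1 and 96.0 percentiles of the 9951. At 1 h the means lay between 2.59 and 169, with a median of 25.1. In each of the 15 all 1 h libraries lay below all sham libraries. Without regard to the test, 21.8% of features separated the groups in this way, 10.2% with 1 h higher and 11.6% with 1 h lower.

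**Figure D1:**
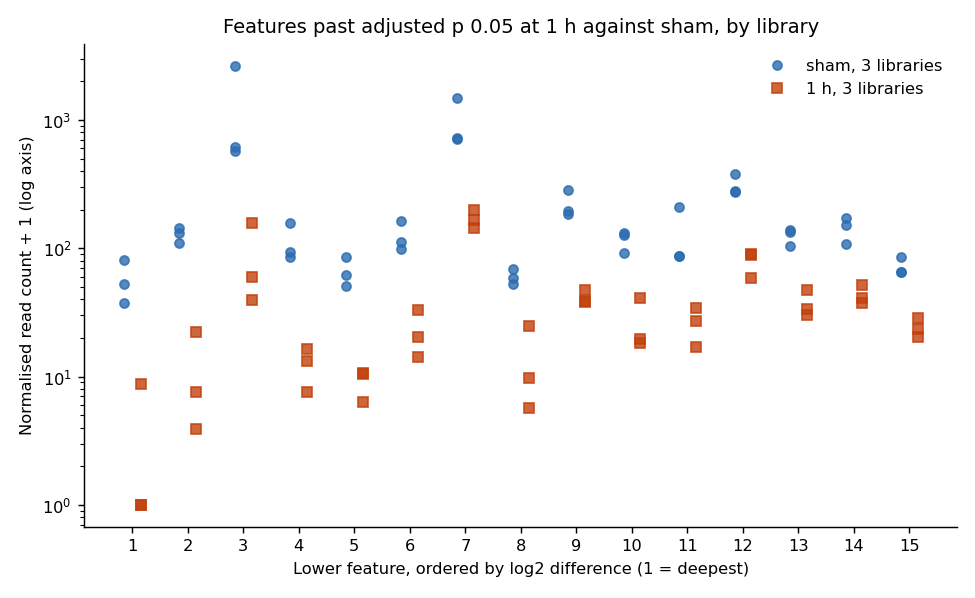
Normalised read count plus 1 (log axis) of each of the 15 features past adjusted p 0.05 in each sham library (circles) and each 1 h library (squares), ordered from the deepest log2 difference, -4.72, to the smallest, -1.57. In every feature the squares lie below the circles.

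Among the 10 annotated features past the threshold, ENSRNOG00000001806 had the deepest fall. Its normalised read counts were 129.6, 143.7 and 108.6 in the sham replicates and 21.2, 2.91 and 6.58 at 1 h. These values stand on 130, 184 and 168 reads in sham and on 16, 3 and 7 reads at 1 h. The groups were far apart, with the highest 1 h library well under the lowest sham library. The mean went from 127 ± 17.7 to 10.2 ± 9.67 (SD, n = 3), 12.5-fold lower, and the log2 difference was -3.87 (SE 0.622, limma adjusted p = 0.0281). At 1 h the SD was nearly as large as the mean, and without 1 h replicate 1 the ratio of means was 26.9 and the log2 difference -4.55.

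The next of these 10 by depth of fall was ENSRNOG00000001928. It had normalised read counts of 49.8, 85.1 and 61.4 in sham and 5.30, 9.70 and 9.39 at 1 h. The mean went from 65.5 ± 18.0 to 8.13 ± 2.46 (SD, n = 3), 8.05-fold lower, giving -2.87 on the log2 scale (SE 0.506, limma adjusted p = 0.0360). The lowest sham library was more than 5 times the highest 1 h library. No 1 h library reached the minimum of 10, so this feature was kept by its sham libraries alone, as was 1 other of the 15. In all, 64 of the 9951 features were kept by sham alone and 42 by 1 h alone, and such features had to differ between the groups to some degree.

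Of the 15, 5 were assembled models (33.3%, against 20.1% of all 9951). An assembled model had the deepest difference, with normalised read counts of 51.8, 80.5 and 36.2 in sham and 0, 7.76 and 0 at 1 h, the latter from 8 reads in all (log2 difference -4.72, SE 0.798, limma adjusted p = 0.0302). The most abundant of the 15 was another assembled model, with 567, 2637 and 620 in sham and 158, 58.2 and 38.5 at 1 h (log2 difference -3.76, SE 0.580, limma adjusted p = 0.0281). Its sham replicate 2 stood far above the other sham libraries, and its mean in sham was 15.04 times that at 1 h, 7.002 times without sham replicate 2 and 26.4 times without 1 h replicate 1. For the deepest one the ratio of means was 21.7, and 14.5 without 1 h replicate 1 or 3. The most abundant annotated one had 728, 1486 and 706 in sham and 199, 165 and 144 at 1 h (log2 difference -2.44, SE 0.403, limma adjusted p = 0.0281). Here too sham replicate 2 was the highest library, while the 1 h libraries lay close together.

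The other 10 had sham means between 59.1 and 309, and 2 of them are described with their later values. An assembled model with 83.7, 155 and 91.8 in sham had 6.62, 15.5 and 12.2 at 1 h (log2 difference -3.18, SE 0.545). Annotated features with 112, 163 and 97.6 and with 193, 286 and 185 in sham had 31.8, 19.4 and 13.2, and 37.1, 46.6 and 37.6, at 1 h (log2 differences -2.53 and -2.40). Annotated features with 131, 91.4 and 127 and with 86.7, 209 and 85.3 in sham had 17.2, 39.8 and 18.8, and 15.9, 33.0 and 26.3, at 1 h (-2.24 and -2.22). In each of these the highest 1 h library lay well below the lowest sham library. The remaining falls were shallower and more even between libraries, for example 277, 376 and 275 in sham against 87.4, 89.2 and 57.3 at 1 h (-1.99, SE 0.360) and 103, 139 and 133 against 29.1, 46.6 and 32.9 (-1.78, SE 0.317). An assembled model with 150, 171 and 106 in sham and 50.3, 39.8 and 36.6 at 1 h had the lowest SE of the set, 0.276 (-1.71, limma adjusted p = 0.0281).

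That ordering, sham replicate 2 first, was common to the set. Sham replicate 2 was the highest sham library in 13 of the 15 features, and it was so in 32.5% of all 9951. At 1 h, replicate 1 was highest in 7 and replicate 2 in 8, and replicate 3 in 0, against 30.5% of all features for replicate 3. Without sham replicate 2 limma called 0 features (498 at unadjusted p under 0.05). The counts were 3 (2 higher, 1 lower) without sham replicate 1 and 0 without sham replicate 3. Without 1 h replicates 1, 2 and 3 they were 10, 1 and 0. All 15 lay below sham in each of these fits. Their groups did not overlap, so leaving out 1 library could not change this, and nothing is read from it. edgeR's quasi-likelihood test on the recovered reads called 0 (701 at unadjusted p under 0.05), with adjusted p-values of 0.0719 to 0.205 for the 15, and DESeq2 called 72 (0.724%; 62 lower, 0.623%, and 10 higher, 0.1%), which included all 15.

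The 15 features followed different courses after 1 h. All later groups were set against the same sham libraries, so their values are given side by side. At 6 h the log2 difference from sham ran from -3.30 to 2.16 over the 15, with a median of 0.14. It ran from -1.69 to 1.95 at 12 h, with a median of 0.44, and from -1.64 to 0.73 at 72 h, with a median of -0.94. At 6 h all libraries lay above all 1 h libraries in 14 of the 15 (10.3% of all features), at 12 h in 14 (6.69%) and at 72 h in 15 (7.7%). Because features chosen for low 1 h values tend to be higher in any other group, nothing is read from these counts. Libraries at 6 h and 12 h carry another run label, so time and run label cannot be told apart there.

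**Figure D2:**
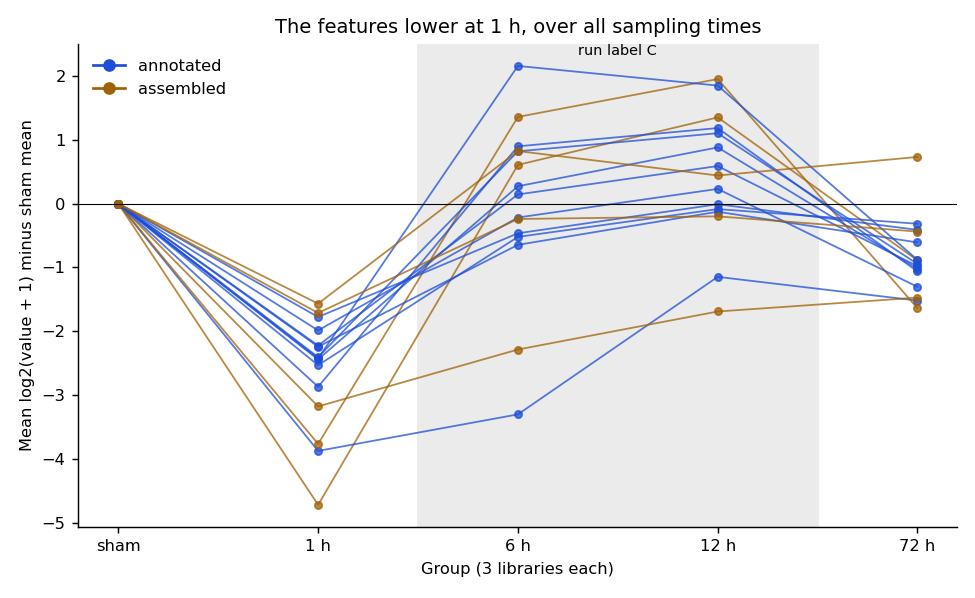
Mean log2(value + 1) of each of the 15 features minus its sham mean, at sham, 1 h, 6 h, 12 h and 72 h (3 libraries each; shading marks the groups under run label C). All lines dip at 1 h and then spread, from -3.30 to 2.16 at 6 h, and at 72 h 14 of the 15 lie below sham.

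Of the 15, 2 also passed the test against sham at 6 h, in opposite directions. Of all 11117 features tested, 54 passed at 6 h (0.486%), 37 higher and 17 lower, and nothing is read from the count of 2, since the 15 were chosen on the same sham libraries. ENSRNOG00000001806 was still low, at 13.7, 10.2 and 12.2 (log2 difference -3.30, limma adjusted p = 0.0324). An annotated feature with 67.8, 57.8 and 51.7 in sham and 23.8, 8.73 and 4.70 at 1 h (log2 difference -2.43, limma adjusted p = 0.0281) had a mean of 267 at 6 h (log2 difference 2.16, limma adjusted p = 0.0324). It thus lay below sham at 1 h, by 4.76-fold in the means (8.80-fold without 1 h replicate 1), and above sham at 6 h. ENSRNOG00000001928 had 102, 92.6 and 184 at 6 h, which is 0.90 above sham on the log2 scale (limma adjusted p = 0.377), and a mean of 31.4 ± 10.6 at 72 h (SD, n = 3).

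At 72 h, which shares its run label with sham and 1 h, 0 of the 11117 features tested passed against sham in limma (806 at unadjusted p under 0.05; lowest adjusted p 0.281), so 0 of the 15 did. In 9 of the 15 all 72 h libraries lay below all sham libraries (10.7% of all features), and in the direct test of 72 h against 1 h, 1 of the 15 passed (0.018% of all features tested). The 15 were chosen for high values in these sham libraries and low values in these 1 h libraries, so nothing is read from either count. This assembled model, the smallest fall of the 15, had 63.8, 84.4 and 64.0 in sham, 27.8, 19.4 and 22.5 at 1 h and 112, 117 and 123 at 72 h. Its replicates agreed closely in each group, and the difference between 72 h and 1 h was 2.30 log2 units (limma adjusted p = 0.00516).

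No feature with a higher level passed the test. The rule for printed IDs then took annotated, non-overlapping features with a mean above the median of the 11117 features tested. By smallest unadjusted p it gave ENSRNOG00000010098 and ENSRNOG00000013000. ENSRNOG00000010098 had normalised read counts of 33.9, 32.8 and 18.1 in sham and 86.1, 103.8 and 109 at 1 h. The groups did not overlap, and the log2 difference was 1.83 (SE 0.479, limma adjusted p = 0.227). Its mean was 205 ± 45.9 at 6 h (SD, n = 3, 2.84 above sham on the log2 scale, limma adjusted p = 0.0306) and 100.2 ± 45.7 at 72 h (1.73 above sham, limma adjusted p = 0.544).

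ENSRNOG00000013000 had 3.99, 3.12 and 12.9 in sham and 193, 103.8 and 121 at 1 h. The mean at 1 h was 20.9 times that in sham, or 39.2 times without sham replicate 3, and the fitted difference was 4.36 on the log2 scale (SE 1.16, limma adjusted p = 0.233). The libraries varied widely in the later groups, from 0 to 46.5 at 6 h, 6.85 to 73.7 at 12 h and 8.92 to 86.9 at 72 h. That spread enters the error of the fit to all 15 libraries.

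With the 6 sham and 1 h libraries alone, 112 features passed (1.13% of those tested), 89 lower (0.894%) and 23 higher (0.231%) at 1 h. In that fit the median SE of a log2 difference was 0.351, and it was 0.481 with all 15 libraries. Both features described above as higher then passed, ENSRNOG00000010098 with a limma adjusted p of 0.0238 and ENSRNOG00000013000 with 0.00525. Of the 15, 13 passed there; the abundant assembled model with the high sham replicate 2 did not (limma adjusted p = 0.111), nor did the annotated feature that was above sham at 6 h (limma adjusted p = 0.0558). Within the 9 libraries of run label A&B, 106 passed (1.07%), 94 lower (0.945%) and 12 higher (0.121%), with all 15 among them. The 6-library and A&B fits shared 79 lower and 10 higher features, which is 84.0% and 83.3% of the calls within A&B and 88.8% and 43.5% of those from the 6 libraries. Array weights, which let the fit weight libraries unequally, gave 334 (3.36%), 262 lower (2.63%) and 72 higher (0.724%). Lower features thus outnumbered higher ones in the fits that called more features, with 79.5% lower in the 6-library fit, 88.7% within A&B, 86.1% in DESeq2 and 78.4% with array weights.

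**Figure D3:**
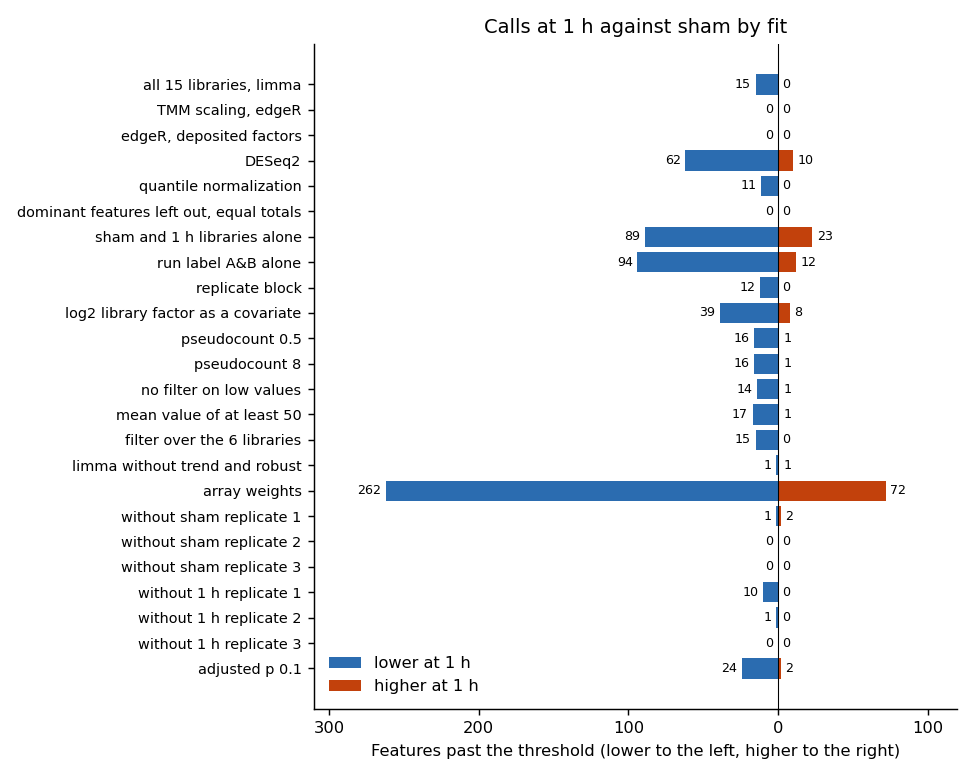
Number of features lower (left) and higher (right) at 1 h that passed the threshold in the fit to all 15 libraries and in each alternative (adjusted p 0.05 except in the bottom bar, 0.1). The fit to all 15 libraries calls 15 lower and 0 higher, the 6 libraries alone 89 and 23, and array weights 262 and 72.

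Of the 23 features that were higher in the 6-library fit, 4 had 0 reads in every sham library and the other 19 had log2 differences of 1.08 to 5.22, with a median of 1.73. The 1 h and sham libraries overlapped in none of the 23 (10.2% of all 9951 features separated with 1 h higher). The 23 were chosen on these same 6 libraries, so nothing is read from this. An annotated feature among them had 590, 380 and 269 in sham and 1735, 1312 and 1041 at 1 h (log2 difference 1.76, limma adjusted p = 0.0290 in the 6 libraries, 0.360 in all 15). Another was tightly grouped, with 84.7, 92.2 and 83.4 in sham and 224, 215 and 202 at 1 h (log2 difference 1.29, limma adjusted p = 0.0188 in the 6 libraries, 0.627 in all 15). Their log2 differences were the same in either fit, so the calls there differed with the libraries that set the spread. The estimates also moved when the library factor was added to the model. They were then 1.32 for the first (limma adjusted p = 0.0172) and 0.80 for the tightly grouped one (limma adjusted p = 0.207). Of the 23, 5 passed as higher in that model.

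These features also took several courses, but features chosen for high 1 h values tend to be lower in any other group. Nothing is therefore read from lower later values. Of the 23, 8 had a 6 h mean above the 1 h mean and 6 a 72 h mean above it. An annotated feature was higher at 1 h than in any other group, with 22.9, 29.7 and 28.5 in sham, 86.1, 104.7 and 108 at 1 h, and later means of 33.2 (6 h), 22.2 (12 h) and 22.0 (72 h) (log2 difference at 1 h 1.85, SE 0.384, limma adjusted p = 0.0797 in all 15 libraries). Another behaved likewise at a higher level, with 144.5, 172 and 191 in sham, 339, 378 and 356 at 1 h and 113, 199 and 138 at 72 h (1.08, SE 0.304, limma adjusted p = 0.263). Its 72 h libraries all lay below its 1 h libraries. An annotated feature with 173, 122 and 102 in sham and 315, 411 and 299.7 at 1 h reached 2407, 2279 and 579 at 6 h (3.50 above sham, limma adjusted p = 0.0501). Its 6 h replicate 3 stood far below the other libraries of that time, and run label changes between these groups. Over the 15 libraries 14 of the 23 had a slope on the log2 library factor with a limma adjusted p under 0.05. So did 36.7% of all 9951 features and 7 of the 15 lower ones. The slope was negative in most of the 14, down to -1.6, and positive in the others, up to 2.7. In the 7 lower ones it was positive, from 0.42 to 1.16.

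Of all 17599 features, 94 had reads in every sham library and 0 reads in every 1 h library, and 40 had the reverse. With at least 10 in each sham library and 0 reads in each 1 h library there were 4. The most abundant of them, annotated, had 241, 170 and 160 in sham and 0 in all 3 libraries at 1 h. Its values at 72 h were 0, 0 and 576, and at 6 h they were 462, 686 and 415. Libraries of a single group, those at 72 h, thus differed as far as the groups did, and the feature did not pass the test in all 15 libraries (limma adjusted p = 0.250).

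The opposite pattern, 0 reads in every sham library and at least 10 in each 1 h library, was seen in 5. The most abundant, an assembled model, had 191, 126 and 104 at 1 h (limma adjusted p = 0.102, and 0.000254 in the 6 libraries). It was also counted in all libraries at 6 h, where it had 72.7, 88.1 and 61.5, and at 12 h, with 198, 156 and 23.9. At 72 h it had 0, 78.3 and 213.

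Most features lay close to the sham level. Over the 9951 the log2 difference had a median of 0.03, the middle of the distribution ran from -0.36 to 0.39 (25th to 75th percentile), and the 5th and 95th percentiles were -1.21 and 0.99. The deviation was not even over abundance. In the most abundant of 4 equal parts (mean of at least 156 over all libraries) the median was 0.22, and 67.4% of features lay above sham. In the other parts it was -0.05, -0.05 and 0.00, from the least abundant upward. Of the 100 most abundant features 93 lay above sham (52.4% of all 9951), with a median of 0.54. In 27 of the 100 the groups separated with 1 h higher (10.2% of all 9951 and 17.6% of the most abundant part). Of the 100, 0 passed the test in limma (4 at unadjusted p under 0.05).

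**Figure D4:**
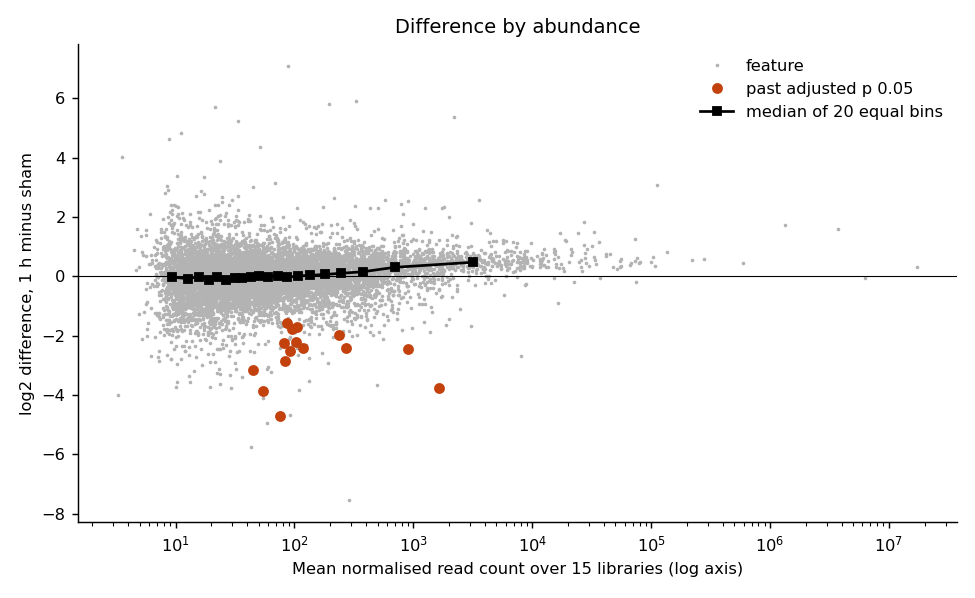
Log2 difference between 1 h and sham against the mean normalised read count over 15 libraries (log axis) for the 9951 features (grey); coloured points are the 15 past adjusted p 0.05 and squares are medians of 20 equal bins. The bin medians stay near 0 up to a mean of about 108.1 and reach 0.47 in the most abundant bin, while the 15 lie at -1.57 or lower.

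This pattern was set beside the library factor. Over all 15 libraries the 100 most abundant features changed by a median of -1.07 log2 units per unit of log2 factor, and the factor was lower at 1 h on average. Since the values are reads divided by the factor, part of this slope holds by construction. With the log2 factor as a covariate the median difference of the 100 was 0.10 and that of the most abundant part 0.03. The factor itself differed in mean between the groups, and the cause of the pattern was not tested. When libraries were scaled to equal totals of reads outside the 5 dominant features, the median of all features shifted to -0.40 and that of the most abundant part to -0.22. Assembled models, which make up 38.2% of that part, had a median of 0.17 over all abundances, and annotated features had 0.00.

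Of the 15 lower features 4 lie in the most abundant part, 9 in the next and 2 in the one after. Their median slope on the log2 factor was 0.45, so that a lower factor goes with lower values. With the factor as a covariate they lay below sham by somewhat less in most cases (-2.49 in place of -2.87 for ENSRNOG00000001928), and all 15 passed in a total of 47 (0.472%), 39 lower (0.392%) and 8 higher (0.0804%). With equal totals they lay below both sham and the median feature, with a median log2 difference of -2.87, but limma then called 0 features (549 at unadjusted p under 0.05) and the median SE of the 15 was 0.690, against 0.419 before.

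The 5 dominant features, all assembled models, took 84.5% ± 0.528 of reads in sham and 84.5% ± 0.760 at 1 h (SD, n = 3). Shares of one total are not independent of each other. Within this similar total the shares of single features differed. The feature ranked 2 took 18.1, 18.2 and 22.4% in sham and 12.7, 13.9 and 14.5% at 1 h. The feature ranked 3 took 9.97, 4.12 and 5.11% in sham and 13.6, 14.6 and 11.8% at 1 h, and that ranked 4 took 3.33, 1.74 and 1.50% in sham and 4.82, 5.60 and 4.69% at 1 h. In all of these the groups did not overlap, with rank 2 lower and ranks 3 and 4 higher at 1 h.

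Rank 2 differed by -5.83 percentage points, rank 3 by 6.96 and rank 4 by 2.84. The exact two-sided permutation p was 0.1 for each, the smallest that 3 against 3 libraries can give (0.2 after adjustment over 6 comparisons), so none could pass. The share at 1 h was 2.09 times that of sham for rank 3 and 2.30 times for rank 4. Rank 1 took 51.6, 58.6 and 53.5% in sham and 51.8, 47.8 and 52.0% at 1 h, and here the groups overlapped (-4.03 points, exact permutation p = 0.3, adjusted 0.45). The difference was -2.01 points without sham replicate 2 and -2.65 without 1 h replicate 2. Rank 5 took 1.52 to 2.29% in sham and 1.72 to 2.10% at 1 h. On the normalised scale, in which the factor also enters, the log2 differences were 1.60 for rank 3 (SE 0.723, limma adjusted p = 0.650) and -0.07 for rank 2 (SE 0.757, limma adjusted p = 0.993).

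**Figure D5:**
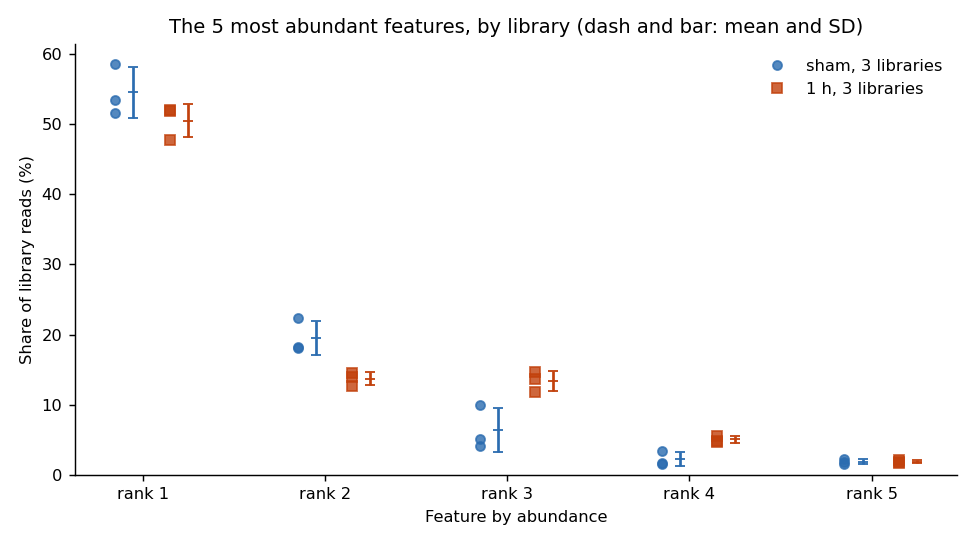
Share of library reads (%) of the 5 most abundant features in each sham library (circles) and each 1 h library (squares), with the mean and SD of 3 libraries beside them. The groups do not overlap for ranks 2, 3 and 4, where the mean shares went from 19.5 to 13.7%, 6.40 to 13.4% and 2.19 to 5.04%.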

How the data were processed

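Whole-blood RNA was collected in PAXgene tubes and sequenced as read pairs of 150 bp from libraries made with an NEBNext Ultra kit, per the labels' protocols. The submitters' processing notes list Bowtie 0.12.2 and a rat build, Rnor_6.0, with no role; the tools for assembly, counting and normalisation and the strand setting are not given here. Reads of near-identical or overlapping genes therefore cannot be told apart. The deposited values are a normalised signal: the authors' reads of a feature over 1 factor per library. The values themselves show this, since 100% were whole multiples of a library's step within 0.01, at most 0.00989 away. In sham replicate 1 the factor is near 1, where this is less well tested.

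Features with at least 10 in at least 3 of 15 libraries (11117) were fitted with limma 3.58.1 (trend, robust; R 4.3.3) on log2(value + 1), all 5 groups in 1 fit, two-sided, with Benjamini-Hochberg adjustment over the 11117. Those with at least 10 in at least 3 of the 6 sham and 1 h libraries (9951) are reported. Features at the minimum in exactly 3 of the 6, just inside, number 564 (median of their means 10.9), and those in exactly 2, just outside, 614 (8.34). Fold changes on this scale understate the change of low features. Read shares and library measures were tested by exact two-sided permutation. Alternatives were edgeR 4.0.16 and DESeq2 1.42.0 on the recovered reads, other scalings, filters, pseudocounts and sample sets, the replicate number as a block, and each library left out. DESeq2 took every feature with any read, 9819 of the 9951 received an adjusted p, and its calls were counted among the 9951. The limma script was first tested on simulated data.

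The comparison, gene lists and tests were chosen with earlier results of these data known. The lists (blood cell types, inflammation, coagulation and others) could not be run without gene names. In their place the rule for printed IDs took, in each direction, the 2 annotated features with the largest log2 difference among those past the threshold, not overlapping and with a mean above the median of all features tested; with none past it, those with the smallest unadjusted p. Other features are described without ID and were chosen after their values were seen. No promoter sequence is printed, as none could be matched.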

Additional observations from a re-analysis of the deposited data

Results flagged for a closer look

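The assembled model with the smallest fall of the 15 differed between times: its 72 h level lay 2.30 log2 units above its 1 h level (limma adjusted p = 0.00516), all 3 libraries at 72 h being above all 3 at 1 h and above all 3 sham libraries. The effects at 72 h and at 1 h share the sham libraries, which cancel in this direct test. Its log2 difference from sham was -1.57 at 1 h and 0.73 at 72 h. Groups of 3 libraries are too small for a check of single outlying libraries. The feature was among those chosen for low values in the 1 h libraries that this test uses.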

How the results depend on the processing

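The number of features past the threshold at 1 h was 15. It was 0 with edgeR under TMM scaling (698 at unadjusted p under 0.05) and 0 with edgeR under the deposited factors, 0 with equal totals outside the dominant features, 2 in limma without trend and robust (1 higher, 1 lower, 0 of the 15 among them), 26 at adjusted p 0.1, 47 with the library factor as a covariate, 72 with DESeq2, 106 within run label A&B, 112 with the 6 libraries alone and 334 with array weights. Leaving out each library gave 0 to 10, and 5 of the 10 without 1 h replicate 1 were among the 15. Other pseudocounts, filters and quantile normalisation gave 11 to 18, with 10 (quantile normalisation) to 15 of the 15 among them. In these, 1 higher feature passed with a pseudocount of 0.5, with one of 8, without a filter and with a mean of at least 50. With the replicate block it was 12, all among the 15. Deviations of same-numbered sham and 1 h libraries correlated by 0.156, 0.013 and 0.101, so the numbers were not taken to pair them. ENSRNOG00000001806 and ENSRNOG00000001928 stayed lower in all 22 alternatives and passed in 13 and 11 of them, with adjusted p of up to 0.280 and 0.417. ENSRNOG00000010098 and ENSRNOG00000013000 stayed higher in all 22 and passed in 4 each, with adjusted p from 0.00212 to 0.670 and from 0.00525 to 0.940. All of these IDs were chosen for groups that do not overlap in the same libraries. Leaving out 1 library could not change their direction, and several other alternatives share the same estimate, so nothing is read from the kept direction. The differences in share of ranks 1 to 4 kept their sign. For ranks 2 to 4, whose groups did not overlap, leaving out 1 library could not change it. Of reads without the most abundant feature, rank 5 differed by -0.363 points and the dominant features together by 2.79, both of opposite sign to the 0.00759 and -0.0478 of all reads. Leaving out each library gave -0.167 to 0.219 and -0.348 to 0.384. The cause of these changes was not tested. Depth limits the 1 h values of the deepest falls, which stand on few reads.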

Other observations

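Most of the abundant features that were at 0 in single libraries were assembled models. Of the 2576 features with a normalised read count of 200 or more in any of the 6 libraries, 30 had 0 reads in another of the 6, and 26 of these 30 were assembled models (86.7%, against 38.2% of the 2576). In 23 of the 30 the change between 0 and 200 or more occurred within sham or within 1 h. None of the 15 lower features was among the 30, but nothing is read from this. Only 1 of the 15 had 0 reads in any 1 h library, and its highest value in the 6 libraries was 80.5. An assembled model had 9066 in sham replicate 2 and 0 in the other 14 libraries of the series. An annotated feature had 1719 in 1 h replicate 2, 1450 in 6 h replicate 1, 1138 and 1297 in 72 h replicates 1 and 3 and at most 3.39 in all other libraries.

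Some assembled models had equal read numbers. In 5 pairs, all of assembled models, the read numbers were equal, at 100 or more, in 3 or more of the 15 libraries, and in 1 pair in 12 libraries. Of the 10 features in these pairs 6 were among the 30. A pair had 1141 and 1141 in sham replicate 1 and 896 and 896 in sham replicate 3, but 3684 and 0 in 1 h replicate 1 and 0 and 2462 in 1 h replicate 2. None of the 15 lower features belonged to such a pair, but only 10 features did, so nothing is read from this. How reads were assigned between such models was not tested.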
